A study of Mus musculus with 12 samples.

Results

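Focal adhesions are the sites where integrins tie the extracellular matrix to the actin cytoskeleton, and the genes described here encode the proteins that make and bundle that link. The members were taken by name: the nuclear RNA count table was searched for 9 gene symbols, and all 9 were found among its 46983 symbols and passed the filter on low counts that left 17715 tested genes. They are Actn1 and Actn4, which encode the non-muscle alpha-actinins, Flna and Flnc, which encode filamins A and C, Vcl for vinculin, Tln1 and Tln2 for the talins, Zyx for zyxin and Pxn for paxillin.

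The study used adult mice in which Myh6-MCM, a tamoxifen-inducible Cre recombinase driven by the Myh6 promoter of cardiac alpha-myosin, was active in cardiomyocytes. Control animals carried Myh6-MCM, and YAP5SA animals carried it together with the transgene given as Yap5SA+/tg, which encodes a form of the co-activator YAP that escapes inhibition by the Hippo kinases. Both groups received tamoxifen. RNA came from nuclei captured through PCM1, a protein used to select cardiomyocyte nuclei, and each group had 2 libraries (total counts from 7850661 to 15012122). The labels do not say whether replicates came from separate animals, so a p-value covers the spread between libraries only, and that spread may be technical. Samples from other assays of the study, ATAC-seq and 4C-seq, were not analysed here.

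Talin binds the tails of integrin beta subunits and actin. When it is stretched it exposes sites for vinculin, which adds further links to actin. Alpha-actinin crosslinks actin filaments into bundles, filamin crosslinks them into networks and also binds integrins, and paxillin and zyxin are LIM domain adapters that recruit signalling and actin assembly proteins. In striated muscle, vinculin and talin 2 lie at costameres, the rib-like attachments of the myofibrils to the cell membrane, and filamin C, the muscle filamin, lies at Z-discs and intercalated discs. Talin 1 and filamin A are the forms common in non-muscle cells.

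Actn1 was the 1 member that passed the test. Its nuclear RNA measured 225 and 229 CPM in control and 772 and 790 CPM in YAP5SA (CPM are counts divided by the scaled library total), so that the groups lay far apart and the replicates close together. The level rose from 227 ± 2.81 to 781 ± 12.9 CPM (SD over n = 2). The log2 fold change was 1.78 with an SE of 0.1999 and a 95% interval from 1.28 to 2.28 (edgeR adjusted p = 0.0278), or 3.44-fold. Of all tested genes, 3.12% were called higher and 0.999% lower at an adjusted p under 0.05, against 1 and 0 of the 9 members. The log2 fold change of Actn1 stayed between 1.75 and 1.83 over the 12 alternative fits. Its call was lost without YAP5SA replicate 1 (adjusted p = 0.155) and without YAP5SA replicate 2 (adjusted p = 0.257), fits in which the lone YAP5SA library is assumed to vary like the control pair. In bulk nuclei, more or fewer cells of a type and more or less RNA per cell cannot be told apart. Beside Actn1, 12 of 12 macrophage and monocyte markers had a positive fold change, with summed levels of 850 and 633 CPM in control and 1565 and 1871 CPM in YAP5SA, and their part in the rise of Actn1 was not tested.

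Actn1 lies on chromosome 12 from 80167547 to 80260371 on the minus strand (GENCODE M21, GRCm38, the assembly called mm10), and its exons cover 5.96% of that span. The promoter windows of the RefSeq table (GRCm38.p6), 250 bases before to 50 bases after a start, covered 7 of the 9 genes with 8 windows. Tln2 and Pxn had none. The windows of 4 genes are shown: the gene that rose, the gene with both a TEAD and a CArG match, and the pair of filamin genes whose levels lay in opposite directions. Letters run 5′ to 3′ on the strand of the gene, and capitals mark matches to the motifs named after them.
Actn1, chr12:80260314-80260613, minus strand: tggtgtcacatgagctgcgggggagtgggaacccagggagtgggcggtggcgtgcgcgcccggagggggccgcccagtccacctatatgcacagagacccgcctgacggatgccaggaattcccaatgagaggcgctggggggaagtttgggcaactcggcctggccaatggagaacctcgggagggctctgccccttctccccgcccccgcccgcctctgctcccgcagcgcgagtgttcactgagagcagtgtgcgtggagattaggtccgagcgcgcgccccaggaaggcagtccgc
Vcl, chr14:20929148-20929447, plus strand: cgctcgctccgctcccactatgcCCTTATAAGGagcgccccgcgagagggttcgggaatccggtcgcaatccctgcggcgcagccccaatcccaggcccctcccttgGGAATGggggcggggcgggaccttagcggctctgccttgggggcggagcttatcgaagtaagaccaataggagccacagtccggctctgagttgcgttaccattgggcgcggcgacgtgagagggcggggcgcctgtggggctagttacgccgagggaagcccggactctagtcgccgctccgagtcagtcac
Flna, chrX:74246485-74246784, minus strand: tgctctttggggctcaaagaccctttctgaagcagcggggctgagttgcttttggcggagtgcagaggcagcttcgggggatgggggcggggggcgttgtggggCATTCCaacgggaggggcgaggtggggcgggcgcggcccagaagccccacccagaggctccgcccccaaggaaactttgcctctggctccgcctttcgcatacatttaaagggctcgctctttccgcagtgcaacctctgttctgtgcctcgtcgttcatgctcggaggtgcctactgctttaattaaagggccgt
Flnc, chr6:29432903-29433202, plus strand: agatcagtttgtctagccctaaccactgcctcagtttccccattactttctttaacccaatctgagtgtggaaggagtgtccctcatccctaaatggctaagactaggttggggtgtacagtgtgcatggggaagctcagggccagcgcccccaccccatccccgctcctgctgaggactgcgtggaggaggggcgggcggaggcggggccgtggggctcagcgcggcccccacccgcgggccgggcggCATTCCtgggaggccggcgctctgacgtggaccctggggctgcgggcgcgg

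Both strands were searched for 3 motifs. The first was GGAATG, the core bound by TEAD factors, the DNA-binding partners of YAP, and it stood in 4 of the 7 members with a window (Vcl, Flna, Flnc and Actn4). Of all 32851 promoter windows 14.7% held it, and of 27025 genes 16.6% had it in any window. It began at position -143 from the start in Vcl, at -146 in Flna and at -216 in Actn4, and at -1 in the Flnc window shown. The other Flnc window (chr6:29433006-29433305) held the same match at -104 from its own start. Some RefSeq starts are not the ends of the GENCODE loci given here. The Flna window lies inside the gene, whose 5′ end is at 74249820, and the Flnc window shown ends before the GENCODE start at 29433256. The second was the CArG box, the site of serum response factor, found in Vcl alone at position -227 (1.63% of all windows and 1.81% of genes). The third was TGANTCA, an AP-1 type motif, found in Actn4 at -169 and in Zyx at -121 (7.81% of all windows and 8.97% of genes). None of the 3 overlapped another in these windows. The Actn1 and Tln1 windows held none of the 3, which says only that these letters are not in these windows. The matches are descriptions of sequence, and binding was not measured in the data used here.

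**Figure D1:**
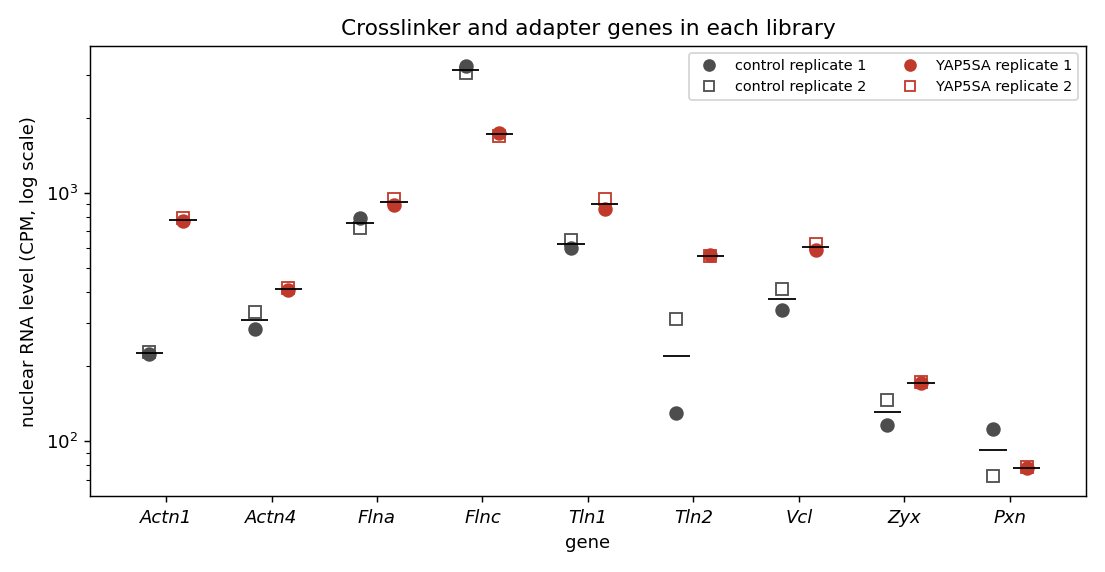
Nuclear RNA level in CPM (log axis) of the 9 genes in each of the 4 libraries, with filled circles for replicate 1, open squares for replicate 2 and short lines for group means. Actn1 lies at 225 and 229 CPM in control and at 772 and 790 CPM in YAP5SA, Flnc is the gene with both YAP5SA libraries below both control libraries, and Tln2 and Pxn are spread widely in control.

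The other non-muscle alpha-actinin, Actn4, on chromosome 7 from 28893248 to 28962340, differed less. It measured 284 and 332 CPM in control and 408 and 414 CPM in YAP5SA, so both YAP5SA libraries lay above both control libraries, with a log2 fold change of 0.42 (SE 0.193, 95% interval -0.07 to 0.90) that did not pass (adjusted p = 0.264). The ratio of Actn1 to Actn4 counts within a library, which does not depend on how libraries are scaled, was 0.792 and 0.690 in control and 1.89 and 1.91 in YAP5SA, so the gene with more counts was Actn4 in both control libraries and Actn1 in both YAP5SA libraries. Per kilobase of exon the ratio was 0.877 and 0.764 in control and 2.09 and 2.11 in YAP5SA, which keeps that order. The log2 ratio differed by 1.36 (control -0.44 ± 0.141, YAP5SA 0.93 ± 0.00974; SD, n = 2; two-sided exact permutation p = 0.33, the smallest that 2 against 2 allows). Actn2, the sarcomeric alpha-actinin of the Z-disc, was picked with its values in view and measured 855 and 1354 CPM in control and 658 and 666 CPM in YAP5SA, with an adjusted p of 0.215 and a log2 fold change of -0.74 (SE 0.2995).

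The filamins lay in opposite directions. Flnc, on chromosome 6 from 29433256 to 29461883, measured 3237 and 3035 CPM in control and 1742 and 1703 CPM in YAP5SA, and the groups did not overlap. Its log2 fold change was -0.86 (SE 0.293, 95% interval -1.60 to -0.13), and its adjusted p of 0.1598 missed the threshold. It passed with DESeq2 (adjusted p = 0.00843) and for edgeR with no filter (adjusted p = 0.0309). The log2 fold change was -0.81 without control replicate 1 and -0.87 without control replicate 2. In these 2 fits the lone control library is assumed to vary like the YAP5SA pair, whose replicates differed less. Flna, on the X chromosome from 74223461 to 74249820, measured 791 and 725 CPM in control and 892 and 950 CPM in YAP5SA. The YAP5SA libraries lay above the control libraries by little (log2 fold change 0.28, SE 0.223, 95% interval -0.28 to 0.84, adjusted p = 0.490), and Flna passed in none of the 12 alternatives. The ratio of Flna to Flnc counts was 0.244 and 0.239 in control and 0.512 and 0.558 in YAP5SA, 2.21 times higher between the group means of the log2 ratio (difference 1.145; exact permutation p = 0.33, the smallest possible). Flnc kept more counts than Flna in every library, and their exon lengths of 9.40 kb each are close to equal.

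**Figure D2:**
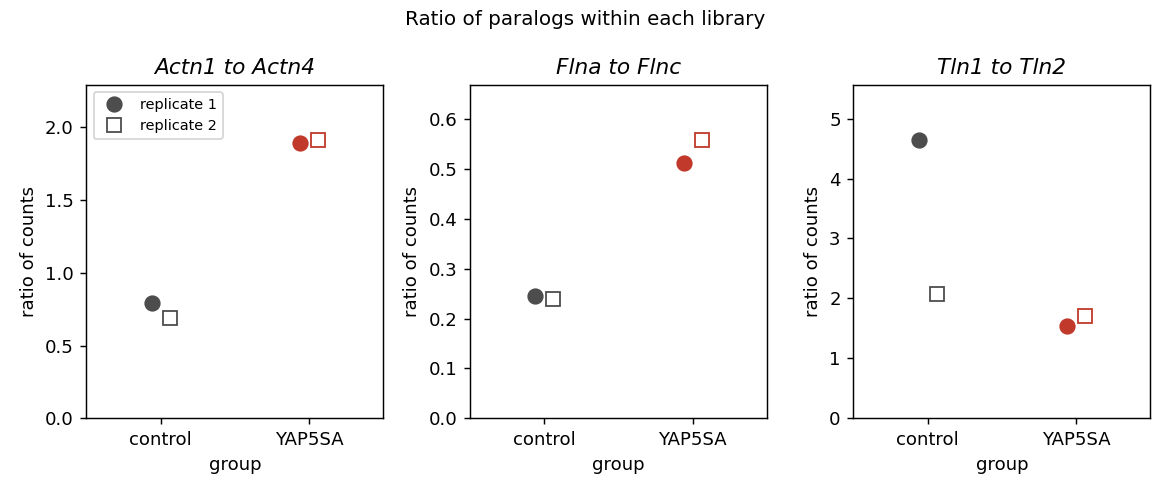
Ratio of counts of Actn1 to Actn4, Flna to Flnc and Tln1 to Tln2 within each library (linear axes from 0), with filled circles for replicate 1 and open squares for replicate 2. The first 2 ratios are higher in both YAP5SA libraries (1.89 and 1.91 against 0.792 and 0.690, and 0.512 and 0.558 against 0.244 and 0.239), and the third is lower in both, with control replicates at 4.63 and 2.08.

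The talins were both higher in YAP5SA than in control without passing. Tln2, on chromosome 9 from 67217087 to 67559703, measured 130 and 312 CPM in control and 561 and 558 CPM in YAP5SA. In ratio, the control replicates stood further apart than those of any other member, and the YAP5SA replicates were nearly equal. The log2 fold change was 1.34 (SE 0.426, 95% interval 0.27 to 2.41, adjusted p = 0.143). It was 0.85 without control replicate 1 and 2.15 without control replicate 2, fits in which the lone control library is assumed to vary like the YAP5SA pair. Tln2 passed for edgeR with no filter (adjusted p = 3.33e-06) and with DESeq2 (adjusted p = 0.0134). The same 2 control libraries differed in cardiomyocyte markers, whose summed level was 32726 CPM in control replicate 1 and 67400 CPM in control replicate 2. Most of that sum was Ttn, at 19901 and 48149 CPM. The markers differed unevenly, with Tnnt2 at 2061 and 2288 CPM and Cacna1c at 589 and 1701 CPM. The part of these differences in the Tln2 values was not tested.

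Tln1, on chromosome 4 from 43531519 to 43562691, measured 600 and 648 CPM in control and 863 and 948 CPM in YAP5SA, with no overlap (log2 fold change 0.54, SE 0.220, 95% interval -0.02 to 1.09, adjusted p = 0.2199). It passed in no fit that kept both control libraries. The log2 fold change was 0.49 without control replicate 1 and 0.63 without control replicate 2. Tln1 shares 360 exon bases with Creb3, a transcription factor gene on the other strand, and the strand setting of the counting was not given in the sources at hand, so reads in the shared stretch cannot be told apart. The same holds for 316 exon bases that Actn4 shares with Capn12, 236 that Zyx shares with Epha1, and 363 and 88 that Actn1 shares with a pair of antisense genes. Creb3 measured 44.5 and 30.9 CPM in control and 78.8 and 86.4 CPM in YAP5SA, far below Tln1 in each library. The ratio of Tln1 to Tln2 counts was 4.63 and 2.08 in control and 1.54 and 1.70 in YAP5SA. Between group means the log2 ratio differed by -0.94 (control SD 0.819, exact permutation p = 0.33, the smallest possible). On the log2 scale the control ratios stood further apart from each other than the group means did. The log2 difference was -0.36 without control replicate 1 and -1.52 without control replicate 2.

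Vcl, on chromosome 14 from 20929398 to 21033676, measured 337 and 412 CPM in control and 590 and 622 CPM in YAP5SA. Both YAP5SA libraries lay above both control libraries, with a log2 fold change of 0.69 (SE 0.214, 95% interval 0.16 to 1.23) and an edgeR adjusted p of 0.135. The adjusted p was 0.0462 with DESeq2 and 0.0373 for edgeR with no filter, and Vcl passed in no other fit that kept both control libraries. The log2 fold change was 0.56 without control replicate 1 and 0.88 without control replicate 2. Its gene shares 2090 exon bases with Ap3m1, an adaptor protein complex gene on the other strand. As the strand setting of the counting was not given, reads in this stretch cannot be told apart either. Ap3m1 lay between 52.7 and 53.7 CPM in the 4 libraries.

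The LIM domain adapters Zyx and Pxn did not pass. Zyx, on chromosome 6 from 42349630 to 42360213, measured 116 and 147 CPM in control and 171 and 173 CPM in YAP5SA (log2 fold change 0.39, SE 0.188, 95% interval -0.08 to 0.86, adjusted p = 0.280). It passed in no fit that kept both control libraries. The log2 fold change was 0.24 without control replicate 1 and 0.61 without control replicate 2. Pxn, on chromosome 5 from 115506676 to 115555987, measured 112 and 72.6 CPM in control and 78.1 and 78.4 CPM in YAP5SA and was the 1 member whose groups overlapped. Its log2 fold change was -0.24 (SE 0.241, 95% interval -0.85 to 0.36, adjusted p = 0.587). The sign depended on the control library kept: -0.48 without control replicate 2 and 0.12 without control replicate 1.

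**Figure D3:**
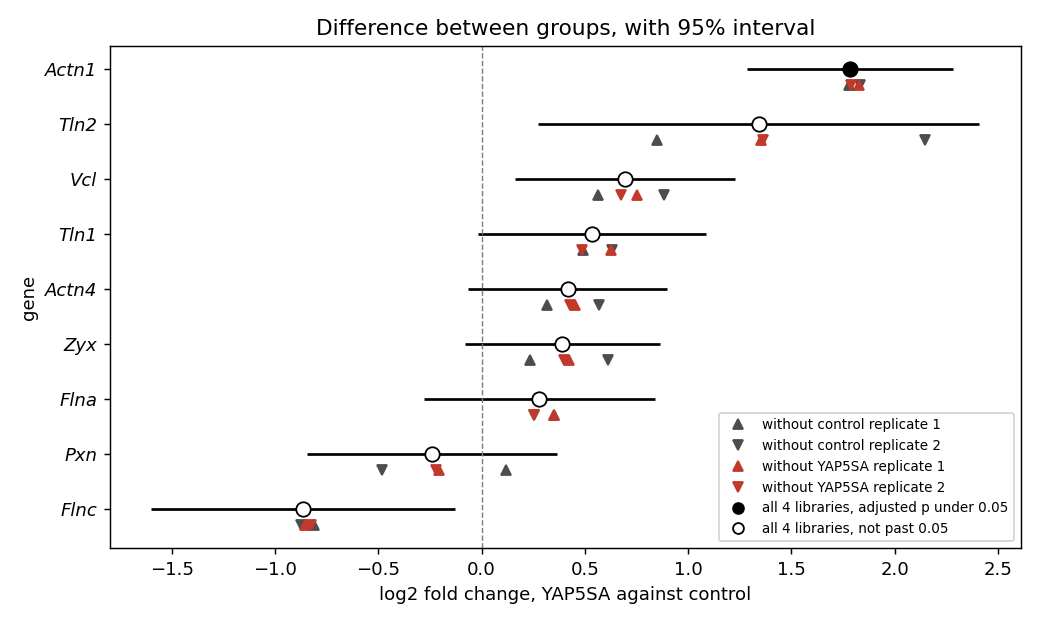
Log2 fold change of YAP5SA against control for the 9 genes (black circles, filled where the edgeR adjusted p is under 0.05) with the 95% interval as a line, and the values with 1 library left out as triangles. Actn1 is the filled circle at 1.78 and its triangles lie within 1.78 and 1.83, while those of Tln2 run from 0.85 to 2.15 and those of Pxn lie on both sides of 0.

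Taken by position, both YAP5SA libraries lay above both control libraries for 7 members and below them for 1 (Flnc), where 28.1% of all tested genes lay above and 28.3% below in the same way. At an unadjusted p under 0.05, 3 members were higher (Actn1, Vcl and Tln2) and 1 was lower (Flnc), against 12.7% and 10.9% of all tested genes. With DESeq2 the same 3 and 1 members passed at an adjusted p under 0.05, where it called 3.50% of genes higher and 1.73% lower, and edgeR with no filter passed the same 3 and 1 beside 5.65% and 5.53%. The shares of these 2 fits are over 30546 genes, which include the genes that the low-count filter removed. Shares over well counted genes such as the members were not computed and may be higher. Without control replicate 1, 4 members were called higher and 1 lower, beside 18.8% and 17.4% of genes. Without control replicate 2, 6 were higher and 2 lower, beside 19.7% and 18.6%. The median log2 fold change of the 9 was 0.42, beside -0.06 over all 17715 tested genes. The summed level of the 9, in which Flnc has the most counts, was 5832 and 5913 CPM in control and 6077 and 6237 CPM in YAP5SA.

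Levels of different genes can be set side by side only per length, here CPM per kilobase of merged exons. Whether the counting took intronic reads is not stated, which limits this scale in nuclear RNA. In control the order was Flnc at 334 ± 15.2, Flna at 80.7 ± 4.98, Tln1 at 63.7 ± 3.46, Actn4 at 50.3 ± 5.53, Vcl at 45.7 ± 6.48, Actn1 at 41.0 ± 0.507, Zyx at 24.4 ± 4.12, Tln2 at 12.0 ± 7.03 and Pxn at 11.3 ± 3.42 CPM per kilobase (SD, n = 2). Actn4 overlapped with Vcl, Vcl with Actn1, and Tln2 with Pxn, so these neighbours did not differ beyond their spread. In YAP5SA, Actn1 stood second at 141 ± 2.33 CPM per kilobase, below Flnc at 183 ± 2.87 and above Flna at 98.0 ± 4.31. Tln1 followed at 92.4 ± 6.18 and overlapped with Flna, and below it came Vcl at 73.9 ± 2.74, Actn4 at 67.1 ± 0.653, Zyx at 31.9 ± 0.308, Tln2 at 30.5 ± 0.116 and Pxn at 9.55 ± 0.0300 with no further overlap. Flnc stood 4.13 times above Flna in control and 1.87 times in YAP5SA on this scale.

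Likeness of pattern was measured as the Euclidean distance between log2 CPM values over the 4 libraries, each gene centred on its own mean. Among 7133 other tested genes with a mean of at least 20 CPM, those nearest to Actn1 were Laptm5, Ptk2b, Atp11a, Ppp1r3d and Dock5, at distances from 0.146 to 0.192. Laptm5, a lysosomal membrane protein gene of blood cells, measured 34.3 and 33.6 CPM in control and 111 and 129 CPM in YAP5SA. Among the 8 other members the closest to Actn1 was Tln2, at a distance of 0.932. The smallest of 8 distances cannot be set against the smallest of 7133, since more candidates give nearer genes. Actn4 and Zyx were the most alike pair of members, at a distance of 0.0882, and Actn4 was also the member nearest to Tln1 and to Flna. The distance orders patterns in 4 libraries and was given no test.

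Other genes of the adhesion site were read from lists that held no member. Their counts stand beside all-gene shares of 3.12% higher and 0.999% lower with edgeR. With DESeq2 the shares were 3.50% higher and 1.73% lower, over 30546 genes. Among 12 tested relatives of the member families, 2 rose and 0 fell (4 and 0 with DESeq2; median log2 fold change 0.25): Ajuba, which encodes a zyxin family LIM protein that binds the Hippo kinase LATS, rose from 30.6 ± 3.31 CPM in control to 96.6 ± 4.57 CPM (SD, n = 2; adjusted p = 0.0250), and Wtip, of the same family, went from 15.1 ± 0.118 up to 40.3 ± 2.29 CPM (adjusted p = 0.0284). Ctnna2 and Actn3 were too low to be tested. Without YAP5SA replicate 1, and likewise without YAP5SA replicate 2, 0 genes of this list passed.

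Of the 26 integrin subunit genes, through which talin and filamin reach the matrix, 2 rose and 1 fell (6 and 1 with DESeq2; median 0.06). Itga3, which encodes the alpha subunit of a laminin-binding integrin, was at 52.5 and 48.5 CPM in control and at 253 and 257 CPM in YAP5SA, a 5.04-fold rise (log2 fold change 2.33, SE 0.169, adjusted p = 0.0115). Itga4 rose 2.66-fold, from 9.0 and 11.9 CPM (adjusted p = 0.0409), and Itga11, which encodes the alpha subunit of a collagen-binding integrin, fell 2.15-fold (adjusted p = 0.0492). Itgb1, the beta subunit shared by many of these receptors, measured 915 and 974 CPM in control and 885 and 1067 CPM in YAP5SA, with overlapping groups (adjusted p = 0.928). Without YAP5SA replicate 1 the call of Itga3 held (adjusted p = 0.0311), and without YAP5SA replicate 2 it was lost (0.0716). The calls of Itga4 and Itga11 were lost in both fits and with the replicate number as a block (adjusted p = 0.0519 and 0.0809), and that of Itga11 also with limma-voom.

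Of 35 tested kinases and scaffolds, 3 rose and 1 fell (7 and 2 with DESeq2; median 0.09). Ptk2b, which encodes PYK2, a relative of focal adhesion kinase, rose 3.81-fold, from a control level of 13.4 ± 0.639 CPM to 51.2 ± 0.636 CPM in YAP5SA (SD, n = 2; adjusted p = 0.0176). Tns3, which encodes the integrin and actin binding protein tensin 3, rose 2.48-fold (adjusted p = 0.0316), and Fermt3, which encodes kindlin 3, the kindlin of blood cells, 3.05-fold (adjusted p = 0.0354). Kank3 fell 2.05-fold (adjusted p = 0.0469). Its call was lost with library totals alone (adjusted p = 0.0512) and with the replicate number as a block (0.0803), and that of Tns3 with the block (0.0583). Ptk2, the gene of focal adhesion kinase, measured 111 and 104 CPM in control and 89.6 and 85.0 CPM in YAP5SA (adjusted p = 0.3097). Of 27 actin assembly and LIM partners, 1 rose and 0 fell (2 and 0 with DESeq2, median 0.17). At an unadjusted edgeR p under 0.05, 4 were higher and 3 lower, beside 12.7% and 10.9% of all tested genes. The gene that rose was Diap3, listed today as Diaph3, which encodes a formin that elongates actin filaments. Its control level was 14.5 ± 1.99 CPM and its YAP5SA level 57.0 ± 5.57 CPM (SD, n = 2, edgeR adjusted p = 0.0221). In these last lists 0 genes passed in the fits that kept a single YAP5SA library. Fermt3, Itgb1 and Ptk2 were chosen after their values were seen.

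**Figure D4:**
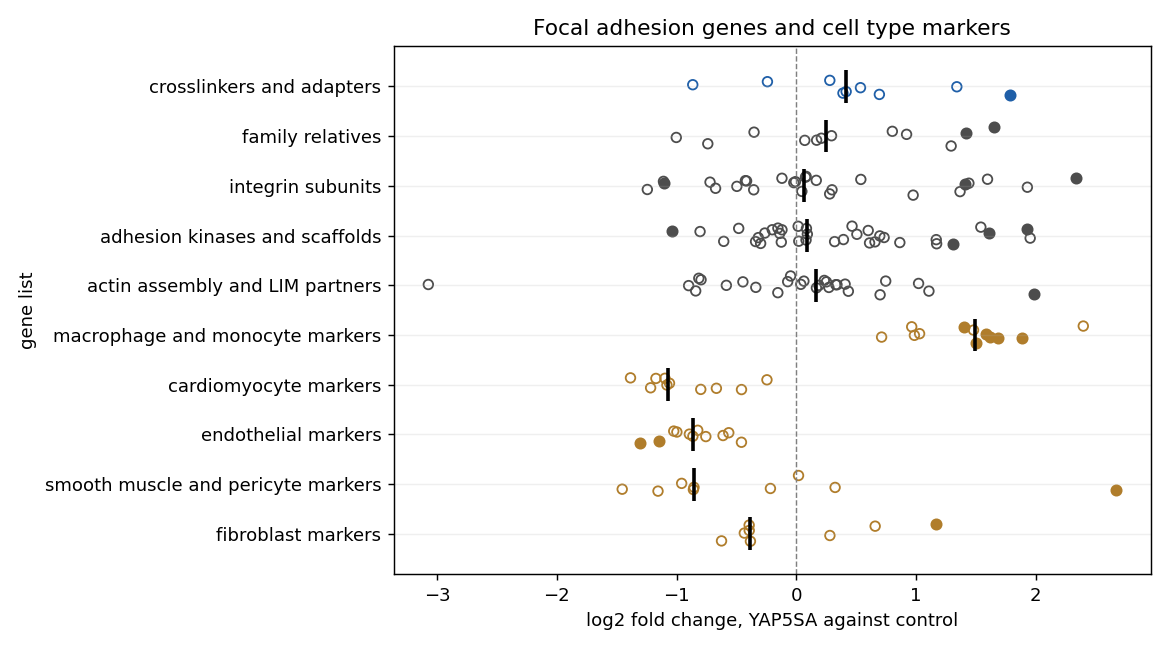
Log2 fold change of YAP5SA against control for each tested gene of the 9 members (blue), the 4 adhesion lists (grey) and 5 lists of cell type markers (brown), filled where the edgeR adjusted p is under 0.05, with the median as a black bar. The members have a median of 0.42, the adhesion lists medians from 0.06 to 0.25, and the macrophage and monocyte markers one of 1.49.

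Most members are expressed by many cell types. All 10 cardiomyocyte markers were detected, and all 10 had a negative fold change with 0 past the threshold (median -1.07), with 4 lower at an unadjusted edgeR p under 0.05, 4 lower with DESeq2 and summed levels of 23830 and 24812 CPM in YAP5SA. Of the 12 macrophage and monocyte markers, all detected, 6 rose past the threshold (median 1.49). Endothelial markers summed to 2155 and 1378 CPM in control and to 1058 and 981 CPM in YAP5SA, with 11 of 11 lower and 2 past the threshold. The sum of fibroblast markers overlapped between groups (6603 to 8144 CPM in control, 6272 to 7838 CPM in YAP5SA), while 3 of 8 lay higher and 3 lower without overlap and Lum rose, from 59.9 and 68.7 CPM to 132 and 156 CPM (log2 fold change 1.16, adjusted p = 0.0394). Groups also overlapped in the sum of smooth muscle and pericyte markers (1546 to 1720 CPM and 1596 to 1742 CPM). In that sum Acta2 rose, from 158 and 97.5 CPM in control to 712 and 917 CPM in YAP5SA. A negative fold change was seen for 6 of the 9 (median of the list -0.85), 5 of them without overlap. At an unadjusted edgeR p under 0.05, 4 of 9 were lower, and 2 were lower with DESeq2. Epicardial, platelet and Schwann cell markers summed to at most 61.0 CPM in any library, and 0 of their 12 tested genes passed with edgeR (3 higher and 3 lower at an unadjusted p under 0.05, and 1 higher with DESeq2). Of 5 tested nuclear and mitochondrial transcripts read as signs of RNA quality, 0 passed with edgeR (2 lower at an unadjusted p under 0.05, and 1 lower with DESeq2). All 5 had a negative fold change (median -0.83), 4 of them without overlap, such as mt-Co1 at 1484 and 1102 CPM in control and 732 and 748 CPM in YAP5SA. The summed level of that list was 52038 and 76617 CPM in control and 50716 and 39509 CPM in YAP5SA, most of it Malat1. No marker of these lists was at 0 in all 4 libraries. The part of these differences in the values of Fermt3, Ptk2b and the other adhesion genes was not tested.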

How the data were processed

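Nuclear RNA was measured in 4 libraries, 2 control and 2 YAP5SA. The authors deposited raw counts per gene symbol, not normalized. Per the labels' protocols, libraries were stranded with ribosomal RNA removed, and reads were mapped to mm10 with STAR, while the submitters' processing notes name DESeq2. The counting program, strand setting, annotation and versions are not given in the sources at hand. Genes were kept by filterByExpr of edgeR 4.0.16 (R 4.3.3; minimum count 10) and libraries were scaled by TMM. Its quasi-likelihood F test without a replicate block gave p-values, adjusted by Benjamini-Hochberg over 17715 genes with a threshold of 0.05. The SE was taken from the log2 fold change and the F statistic, and 95% intervals use the test's degrees of freedom without adjustment for many genes. Member counts ran from 549 to 35746 per library. Replicates differed beyond sampling noise (chi-square per gene 54.5 in control, 13.7 in YAP5SA), so none was merged, and their biological coefficient of variation was 34.3% and 8.44%. Alternatives were 2 other scalings, 2 other filters, DESeq2 1.42.0, limma-voom (limma 3.58.1), replicate blocks and leaving out each library. The default edgeR, limma-voom and DESeq2 fits were run on simulated counts, with less spread than the control pair and larger changes than those of the members. The block and leave-out fits were not simulated. All members were named, and from each list up to 2 genes past the threshold in each direction with the smallest adjusted p. The members and lists were chosen with earlier results of these data known. Gene models came from GENCODE M21, promoters from RefSeq, and 3 list genes were matched through an older symbol.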

Additional observations from a re-analysis of the deposited data

How the results depend on the processing

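The number of members called depended on the setting. With DESeq2 or with no filter, 3 members were higher (Actn1, Vcl and Tln2) and 1 was lower (Flnc), where these fits called 1069 higher and 527 lower genes, and 1727 and 1689. With 1 library left out, 0 to 6 members were higher and 0 to 2 lower, beside 27 to 3749 higher and 0 to 3554 lower genes. For all genes the lowest numbers came without YAP5SA replicate 2 and the highest without control replicate 2. The 2 other scalings, the stricter filter and limma-voom kept 1 and 0. The replicate block called 321 higher and 112 lower genes and kept Actn1 (adjusted p = 0.0443). The replicate numbers share only a name, and same-numbered deviations correlated at -0.1001 across genes. A crossed block, chosen after seeing the data, called 328 and 103 genes and 1 member. With either block the calls of Itga4, Itga11 and Kank3 were lost (adjusted p = 0.0585, 0.0639 and 0.0699 with the crossed one). The log2 fold changes of 8 members kept their sign in all 12 alternatives, and that of Pxn turned to 0.12 without control replicate 1 (-0.48 without control replicate 2). The paralog ratios kept their direction with pseudocounts of 0 and 5 and with each library left out, but the log2 difference of Tln1 to Tln2 ran from -0.36 without control replicate 1 to -1.52 without control replicate 2. The cause of these differences was not tested.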
